A study of Homo sapiens with 4 samples.

Results

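The 2 CUT&RUN libraries of DMSO-treated HSSY II cells, 1 for SS18::SSX and 1 for WDR5, were compared gene by gene at promoters. A gene was called bound by a target when the centre of at least 1 peak of that target lay between 1000 bp upstream and 100 bp downstream of an annotated transcription start site, and the bound genes were split into those with SS18::SSX only, those with WDR5 only, and those cobound by the 2 targets. Of 38899 annotated genes (20033 protein-coding and 18866 long noncoding RNA genes), 10864 (27.9%) held at least 1 promoter peak. They comprised 1195 genes with SS18::SSX only, 1805 cobound genes, and 7864 genes with WDR5 only, whereas 28035 genes had neither.

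SS18::SSX is the fusion oncoprotein of synovial sarcoma. It joins SS18, a subunit of the SWI/SNF (BAF) chromatin-remodeling complexes, to the C terminus of an SSX protein, which binds nucleosomes that carry the Polycomb mark on histone H2A, so that the fusion is known for sitting at developmental genes. WDR5 is a shared scaffold subunit of the KMT2/MLL complexes, which methylate lysine 4 of histone H3 at promoters, and it is also known for binding with MYC at genes of ribosomal proteins.

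HSSY II is an established human synovial sarcoma line that carries the SS18::SSX1 fusion, so both libraries describe 1 line. The cells were kept with DMSO, the vehicle, for 4 days, and 1000000 of them were used per library with 50000 murine NIH-3T3 cells as spike-in. The murine cells carried H2B-GFP, and for SS18::SSX an anti-GFP antibody was added to the anti-SS18::SSX antibody. Because each target had 1 library, no value below was checked in a replicate and none has a p-value. The 95% intervals below are exact Clopper-Pearson intervals, which cover counting error only and treat genes as independent, although neighbouring genes can share a peak (1.15 genes per SS18::SSX promoter peak and 1.13 per WDR5 promoter peak). The SS18::SSX list held 15141 peaks, with a median width of 216 bp, and 2851 of them (18.8%) were at promoters. The WDR5 list held 35605 peaks, with a median width of 302 bp, and 9866 (27.7%) were at promoters. Genome-wide coverage was taken as the lowest local background recovered from the peak statistics, and whether a control library entered it is not stated. It came to 0.541 fragments per bp in the SS18::SSX library and to 0.368 in the WDR5 library, a ratio of 0.68. The list with more peaks thus came from the library with less coverage, and the strength of a peak, given as −log10 q, ranks peaks within its own list and does not compare the 2 proteins.

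The promoters of 7 genes are shown to make the 3 classes concrete, because they were among the strongest genes of a class or among the genes that the study names. All sequences are RefSeq promoters of GRCh38.p14 in the direction of transcription, from 250 bases before to 50 bases after the start, and capitals mark the letters of 3 motifs on either strand, which are CCAAT (the NF-Y motif), CACGTG (an E-box), and GGGCGG (an SP/KLF motif). *LONRF2* (chr2:100322452-100322751, minus strand), *SUGCT* (chr7:40134755-40135054, plus strand), and *HOXA4* (chr7:27130708-27131007, minus strand) had SS18::SSX only. *NIM1K* (chr5:43192602-43192901, plus strand) and *FZD8* (chr10:35642247-35642546, minus strand) were cobound, and *DNAJC28* (chr21:33491352-33491651, minus strand) and *RPL35* (chr9:124861908-124862207, minus strand) had WDR5 only.
LONRF2: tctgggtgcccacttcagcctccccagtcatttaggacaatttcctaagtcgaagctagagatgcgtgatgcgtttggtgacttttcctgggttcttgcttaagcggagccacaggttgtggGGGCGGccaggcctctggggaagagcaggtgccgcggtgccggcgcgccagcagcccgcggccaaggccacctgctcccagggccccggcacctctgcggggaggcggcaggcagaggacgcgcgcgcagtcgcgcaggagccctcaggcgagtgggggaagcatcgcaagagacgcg
SUGCT: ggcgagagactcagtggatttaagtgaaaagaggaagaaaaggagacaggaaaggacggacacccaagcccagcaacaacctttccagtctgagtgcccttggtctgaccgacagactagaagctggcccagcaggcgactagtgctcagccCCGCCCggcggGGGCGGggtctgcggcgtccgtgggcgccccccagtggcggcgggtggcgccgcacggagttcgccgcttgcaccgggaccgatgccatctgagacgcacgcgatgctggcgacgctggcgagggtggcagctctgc
HOXA4: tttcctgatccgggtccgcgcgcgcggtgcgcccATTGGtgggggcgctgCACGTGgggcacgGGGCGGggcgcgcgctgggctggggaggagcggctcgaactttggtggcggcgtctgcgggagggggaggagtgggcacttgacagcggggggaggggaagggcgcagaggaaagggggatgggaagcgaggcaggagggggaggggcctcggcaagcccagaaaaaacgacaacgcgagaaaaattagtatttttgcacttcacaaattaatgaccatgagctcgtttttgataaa
NIM1K: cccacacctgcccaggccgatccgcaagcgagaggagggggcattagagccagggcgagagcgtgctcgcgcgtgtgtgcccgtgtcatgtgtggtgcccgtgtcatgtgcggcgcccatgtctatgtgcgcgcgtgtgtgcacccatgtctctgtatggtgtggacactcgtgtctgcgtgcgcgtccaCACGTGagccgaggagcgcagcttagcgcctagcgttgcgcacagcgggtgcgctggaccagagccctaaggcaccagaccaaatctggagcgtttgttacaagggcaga
FZD8: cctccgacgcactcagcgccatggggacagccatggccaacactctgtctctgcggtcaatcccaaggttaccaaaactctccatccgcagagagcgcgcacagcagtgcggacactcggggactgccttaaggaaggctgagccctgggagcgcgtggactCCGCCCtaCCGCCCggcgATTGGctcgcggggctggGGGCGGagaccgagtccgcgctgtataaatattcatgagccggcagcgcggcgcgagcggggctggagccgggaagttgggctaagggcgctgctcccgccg
DNAJC28: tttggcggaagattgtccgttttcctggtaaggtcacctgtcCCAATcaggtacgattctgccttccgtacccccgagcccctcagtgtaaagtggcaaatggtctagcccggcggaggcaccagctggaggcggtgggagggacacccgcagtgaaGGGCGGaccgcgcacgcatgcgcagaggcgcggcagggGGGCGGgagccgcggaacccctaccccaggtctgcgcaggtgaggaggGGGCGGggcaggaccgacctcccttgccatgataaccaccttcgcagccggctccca
RPL35: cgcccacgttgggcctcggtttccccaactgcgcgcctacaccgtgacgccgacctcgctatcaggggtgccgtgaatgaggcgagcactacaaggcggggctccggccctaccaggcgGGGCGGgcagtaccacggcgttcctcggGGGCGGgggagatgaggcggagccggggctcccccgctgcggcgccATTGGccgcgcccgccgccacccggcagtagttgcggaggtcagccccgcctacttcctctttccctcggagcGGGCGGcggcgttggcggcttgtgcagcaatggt
The strongest SS18::SSX promoter peak covered all 300 bases shown for *LONRF2*, 149 of those for *SUGCT*, and 35 of those for *HOXA4*. At *NIM1K*, the peaks of the 2 targets each covered all 300 bases, and at *FZD8* each covered 129. The WDR5 peak covered 300 bases at *DNAJC28* and 60 at *RPL35*, where it lay mostly further upstream. All 7 sequences were rich in CpG, from 24 CpG at *DNAJC28* to 37 at *RPL35*.

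The first question was how often the 2 targets met at the same promoter. SS18::SSX was present at 2193 protein-coding genes (10.9% of those annotated) and WDR5 at 7374 (36.8%). SS18::SSX stood alone at 840 protein-coding genes (4.19%), WDR5 stood alone at 6021 (30.1%), and 1353 (6.75%) were cobound. Thus 61.7% of the SS18::SSX genes (95% CI 59.6 to 63.7) also held WDR5, compared with 33.8% of the genes without SS18::SSX (33.1 to 34.4), a ratio of 1.83. Seen from the other side, 18.3% of the WDR5 genes (17.5 to 19.3) also held SS18::SSX, compared with 6.64% of the genes without WDR5 (6.21 to 7.08). The share with WDR5 was therefore higher among SS18::SSX genes than among other genes, and most WDR5 genes had no SS18::SSX promoter peak. The cobound share moved with the length of the WDR5 list. Over all annotated genes it was 60.2% (58.4 to 61.9) with all WDR5 peaks and 38.1% (36.3 to 39.8) with the 15141 strongest, as many as the SS18::SSX list held. It also moved with the threshold. At the stricter standard of the study, a −log10 q above 3 with a fold above 3 for SS18::SSX and above 6 for WDR5, it was 17.8% (16.1 to 19.7), with 1404 SS18::SSX-only and 305 cobound genes. With −log10 q above 5 in both lists it was 39.7%, with 392 and 258 genes, so SS18::SSX-only genes outnumbered cobound genes at either threshold.

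Long noncoding RNA genes were bound less often and showed a wider gap. SS18::SSX was at 4.28% of them and WDR5 at 12.2%, with 355 genes (1.88%) holding SS18::SSX only, 452 (2.4%) cobound, and 1843 (9.77%) holding WDR5 only. WDR5 was at 56% of the long noncoding RNA genes with SS18::SSX (52.5 to 59.5) and at 10.2% of those without (9.77 to 10.7), a ratio of 5.49. A long noncoding RNA gene that starts beside a protein-coding gene can share its peak.

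Genes with more start sites offer more promoter sequence in which a peak can be centred. Cobound protein-coding genes had a mean of 3.85 start sites, WDR5-only genes 3.36, SS18::SSX-only genes 2.97, and genes with neither 2.39. Among the 6862 protein-coding genes with 1 start site, WDR5 was at 53.2% of those with SS18::SSX (48.9 to 57.5) and at 22.9% of those without. Among the 1225 genes with 7 or more, the shares were 77.2% (71.5 to 82.3) and 56%. The difference between genes with and without SS18::SSX was therefore present at each number of start sites, while both shares were higher where there were more. Divergent promoters, with the start of another gene on the opposite strand within 1000 bp, made up 34.4% of the SS18::SSX-only genes (31.2 to 37.7), 32.4% of the cobound genes (29.9 to 34.9), 31.1% of the WDR5-only genes (29.9 to 32.3), and 19.3% of the genes with neither.

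By −log10 q, cobound genes carried stronger WDR5 peaks than WDR5-only genes, while SS18::SSX peaks differed less with and without WDR5. The best WDR5 promoter peak had a median −log10 q of 5.7 (quartiles 4.03 and 8.27) at cobound genes and 5.13 (3.64 and 7.22) at WDR5-only genes, with median widths of 421 and 353 bp and a median of 16 and 13 fragments at the summit. For SS18::SSX, the medians were 3.41 (2.56 and 4.75) at cobound genes and 3.24 (2.44 and 4.47) at SS18::SSX-only genes, with widths of 213 and 196 bp and 10 fragments at the summit in each. Fold enrichment did not show this, with medians of 5.04 and 5.03 for WDR5 and of 4.55 and 4.41 for SS18::SSX. The local background at WDR5 peaks was higher at cobound genes, at 5.85 times coverage in the median compared with 4.74, and its part in the difference in −log10 q was not tested. At least 2 WDR5 promoter peaks were present at 21.2% of the cobound genes and at 12.6% of the WDR5-only genes. The best peak is the strongest of those that a gene has, and the part of this in the difference was not tested either. The same values can be read in another way, with the genes of each target ranked by peak strength and cut into 10 equal groups. In the weakest group of WDR5 genes 13.0% (10.7 to 15.7) held SS18::SSX, and in the strongest group 26.6% (23.4 to 29.9). Among SS18::SSX genes, WDR5 was at 57.1% of the weakest group (50.2 to 63.7) and at 66.8% of the strongest (60.2 to 73.0), and these intervals overlapped. Even the weakest SS18::SSX promoter peaks were thus at genes that held WDR5 more often than the genes without SS18::SSX did.

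**Figure D1:**
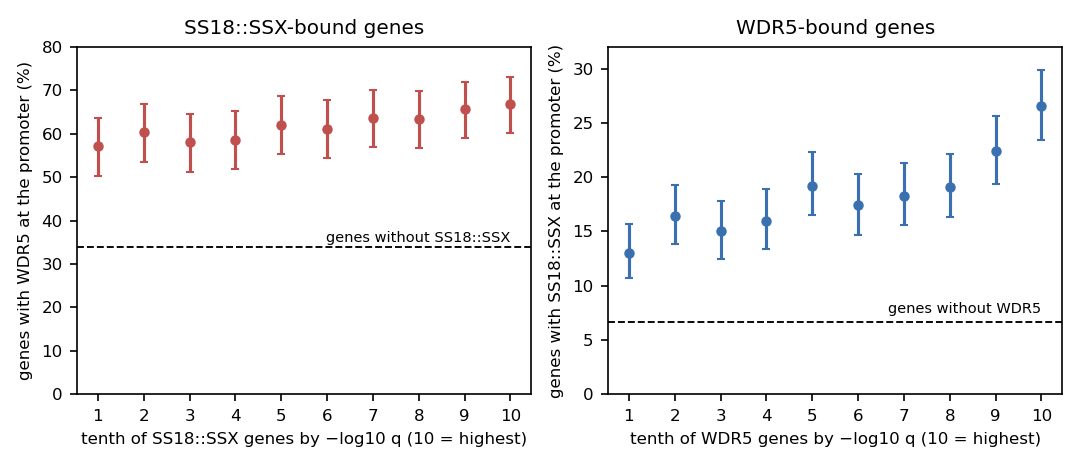
Share of protein-coding genes that held the other target at the promoter (y axes, percent), for the SS18::SSX genes (left) and the WDR5 genes (right) in 10 equal groups by the −log10 q of their best promoter peak (x axes, 10 is the highest). Bars are exact 95% intervals of counting error, and dashed lines give the share among genes without the target on the x axis (33.8% left, 6.64% right). All points lie above their dashed line, and the rise from left to right is clearer for WDR5 genes (13.0 to 26.6%) than for SS18::SSX genes (57.1 to 66.8%).

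At cobound genes the 2 targets mostly lay close together. Of the 1353 cobound protein-coding genes, 973 (71.9%, 95% CI 69.4 to 74.3) had promoter peaks of the 2 targets that overlapped each other, and the median distance between the nearest summits was 220 bp (quartiles 88 and 451). At the other cobound genes no promoter peaks of the 2 targets overlapped. The best peaks of a gene can also belong to different start sites. At *LDLRAD4*, which encodes an inhibitor of TGF-β signalling, the best SS18::SSX and WDR5 promoter peaks belonged to start sites far apart and shared 0 bp. This gene had 4 WDR5 promoter peaks, and whether a weaker one overlapped its SS18::SSX peak is not given here.

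Around start sites, the targets had similar outlines and differed upstream. Among the peaks with a summit within 3000 bp of a protein-coding start site, 36.7% of the 5464 SS18::SSX summits (35.5 to 38.0) and 40.2% of the 17904 WDR5 summits (39.5 to 40.9) lay in the promoter window. Larger shares, 52.2% for SS18::SSX (50.9 to 53.6) and 53.9% for WDR5 (53.2 to 54.6), lay downstream of the window. That stretch, up to 3000 bp after the start, is longer than the window, so the shares do not compare densities. Per bin of 100 bp, both targets were highest just after the start, within the window. Further upstream, more than 1000 and up to 3000 bp before the start, lay 11% of the SS18::SSX summits (10.2 to 11.9) and 5.94% of the WDR5 summits (5.6 to 6.29). In bins of 100 bp, WDR5 had a maximum of 7.27% just after the start site and another of 5.95% between 300 and 200 bp before it, with 4.64% in the bin that ended at the start. SS18::SSX climbed without such a dip to 6.11% just after the start site. The main difference was therefore the longer upstream shoulder of SS18::SSX.

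**Figure D2:**
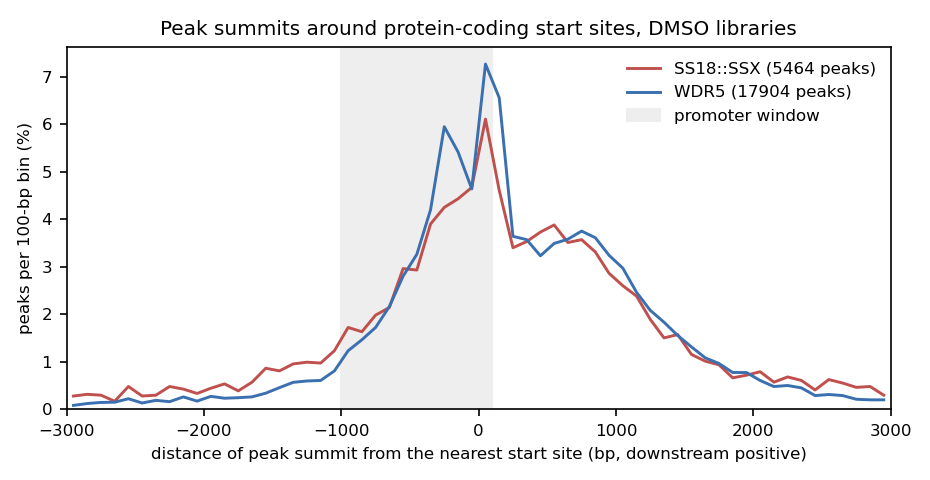
Distance of peak summits from the nearest protein-coding start site (x axis, bp, downstream positive) as the percentage of each target's summits within 3000 bp that fell in each 100-bp bin (y axis). Grey marks the promoter window, and lines are the SS18::SSX (red, 5464 peaks) and WDR5 (blue, 17904 peaks) libraries. WDR5 shows 2 maxima, of 5.95 and 7.27%, at the start site and SS18::SSX 1 of 6.11%, and SS18::SSX lies above WDR5 upstream of the window.

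Because so many summits lay beyond the window, a class with only 1 target did not mean that the other was absent from the gene. Of the 840 protein-coding genes with SS18::SSX only, 506 (60.2%, 95% CI 56.8 to 63.6) had a WDR5 peak centred downstream of the window and up to 2000 bp from a start site, and 652 (77.6%, 74.6 to 80.4) had one within 5000 bp. *DKK1*, which encodes a secreted WNT antagonist, shows how narrow the line can be. It was classed as SS18::SSX only (−log10 q of 2.83), while a WDR5 peak with a −log10 q of 12.5 had its summit 97 bp downstream of a start site and its centre beyond the window. Of the 6021 genes with WDR5 only, by contrast, 737 (12.2%, 11.4 to 13.1) had SS18::SSX in that downstream stretch and 968 (16.1%, 15.2 to 17.0) within 5000 bp. These shares have to be read against the lengths of the 2 lists. Among genes with neither target at the promoter, 42.0% (41.1 to 42.9) had WDR5 and 11.3% (10.7 to 11.9) had SS18::SSX within 5000 bp. Both single-target classes were thus above these shares, and the other target was also near more of the SS18::SSX-only genes than of the WDR5-only genes.

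The 188 protein-coding genes with SS18::SSX at the promoter and no WDR5 peak within 5000 bp of any start site were 22.4% of their class. Their SS18::SSX peaks had a median −log10 q of 3.09, compared with 3.3 at the other SS18::SSX-only genes. The strongest of them was *HOXA4* (peak at chr7:27130973-27131440, −log10 q of 14.0, 41 fragments at the summit), a body-patterning homeobox gene, where the nearest WDR5 summit was 8616 bp upstream. It was followed by *MBP*, which encodes myelin basic protein (−log10 q of 9.48), *RNF223*, a RING-finger gene (9.32), *GTF3C5*, a subunit of the RNA polymerase III factor TFIIIC (8.62), *HOXD10* (8.03), and *TRIM37*, an E3 ubiquitin ligase (7.68). These 6 were singled out after their values were seen. *EZH2*, the catalytic subunit of Polycomb repressive complex 2, was also in this group, with an SS18::SSX peak of −log10 q 4.44 and the nearest WDR5 summit 21035 bp upstream.

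The genes that the study names with chromatin binding or as targets were spread over all classes. *MNX1*, a motor neuron homeobox gene, was cobound, with a −log10 q of 12.5 and 72 fragments at the summit for SS18::SSX and 5.83 and 34 for WDR5. Its 2 peaks did not touch, since SS18::SSX lay at a start site inside the gene (chr7:157008825-157009322) and WDR5 656 bp upstream of another (chr7:157010995-157011621). Within 10 kb of its 5′ end there were 8 SS18::SSX and 6 WDR5 peaks. *NTSR1*, the neurotensin receptor, had 2 SS18::SSX promoter peaks, the stronger with a −log10 q of 5.04, and its nearest WDR5 summit was 2998 bp upstream. *WNT7B*, a WNT ligand (3.35), and *LHX3*, a LIM homeobox gene (3.25), also had SS18::SSX only. At *WNT7B* a WDR5 summit lay 1046 bp upstream, just outside the window, and at *LHX3* the nearest was 11662 bp away. *SIM2*, a bHLH-PAS gene, had WDR5 only (4.22), although an SS18::SSX peak with a −log10 q of 12.2 had its summit 943 bp upstream and its centre outside the window. *FGF3*, a fibroblast growth factor, was alike, with WDR5 at the promoter (3.47) and an SS18::SSX summit 1352 bp upstream. *SOX8*, *FOXC1*, and *FZD10*, a SOX factor, a forkhead factor, and a Frizzled receptor, had neither target in the window. *SOX8* nevertheless had 8 SS18::SSX peaks within 10 kb of its 5′ end, compared with 1 each for *FOXC1* and *FZD10*.

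Among the housekeeping and stress genes that the study names, *RPL7* held SS18::SSX only (−log10 q of 7.16, 22 fragments), *RPL35* (6.65) and *RPL27* (4.38) held WDR5 only, and *RPS10* held neither. They encode ribosomal proteins of the large (RPL) and small (RPS) subunits. *RPL7* had a WDR5 summit 1654 bp upstream, *RPL35* an SS18::SSX summit 494 bp downstream, and *RPS10* a WDR5 peak of −log10 q 7.7 with its summit 852 bp downstream. The nearest SS18::SSX peak to *RPL27* was 17974 bp away. The ribosomal protein genes of this set were thus not alike in the class they fell into. *SNHG15*, a host gene of a small nucleolar RNA, held a weak WDR5 peak (1.84). *CDKN1A*, the cell cycle inhibitor p21, held WDR5 (3.5) with an SS18::SSX summit 548 bp downstream.

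The strongest SS18::SSX-only gene was *TPSAB1*, a mast cell tryptase, with a −log10 q of 31.3, a fold enrichment of 14.2, and 39 fragments at the summit (chr16:1239781-1240075). Tryptase genes have near-identical copies, so the assignment of its reads is uncertain. *MEX3D*, an RNA-binding protein gene (15.4), *IRX4*, an Iroquois homeobox gene (14.9), and *HOXA4* (14.0) came next. *IRX4* had the highest summit of the 8 strongest, with 90 fragments, on a local background of 28.1 fragments, so that its fold enrichment was only 3.12. *SUGCT* (12.7), *DPYSL4* (12.5), *LONRF2* (11.5), and *HTR2C*, a serotonin receptor (11.4), completed them. At 7 of these 8 genes the nearest WDR5 summit lay within 2032 bp of a start site, for example 207 bp downstream at *LONRF2* and 178 bp downstream at *SUGCT*, and *HOXA4* was the exception.

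Among cobound genes, the strongest on the lower of the 2 ranks was *ZDHHC11B*, a palmitoyltransferase gene with a near-identical neighbour, with a −log10 q of 17.0 for SS18::SSX and 21.4 for WDR5. *RUNDC3B* (10.6 and 18.2), *NIM1K*, a protein kinase gene (9.51 and 19.8), *SLC16A12*, a transporter gene (9.16 and 15.8), and *LDLRAD4* (8.8 and 14.8) followed. *SEPTIN9*, a cytoskeletal GTPase gene (8.6 and 19.3), *FZD8*, a WNT receptor (8.39 and 16.5), and *CD8A*, a coreceptor of T cells (8.14 and 28.6), made up the rest. The SS18::SSX peak lay wholly within the WDR5 peak at *RUNDC3B*, *NIM1K*, *SEPTIN9*, and *FZD8*, where the shared stretch was 672, 954, 220, and 372 bp. At these genes the WDR5 peak was the wider, for example 1558 bp compared with 954 bp at *NIM1K*.

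The strongest WDR5-only genes were *PARD3*, a cell polarity gene (−log10 q of 55.6, 128 fragments at the summit), *SERHL2* (31.2), *RAP1B*, a small GTPase gene (27.7), *ANKRD7* (24.1), *METTL27* (23.5), *DNAJC28* (22.3), *FRY* (21.0), and *CUL2*, a cullin of the ubiquitin ligases (20.8). *PARD3* and *CUL2* lie near each other on chromosome 10, and the local background at their WDR5 peaks was 17.4 and 8.13 fragments. *SERHL2* has a near-identical copy, so its reads are uncertain. Away from *PARD3*, where an SS18::SSX summit lay 1431 bp upstream, the nearest SS18::SSX summit was 11043 bp (*DNAJC28*) to 415070 bp (*FRY*) from a start site used here. At *CUL2* the nearest, 35885 bp from such a start, belonged to a peak (chr10:35126432-35126920, −log10 q of 7.36) just inside the 5′ end of the gene record, which is not the start of a basic transcript.

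**Figure D3:**
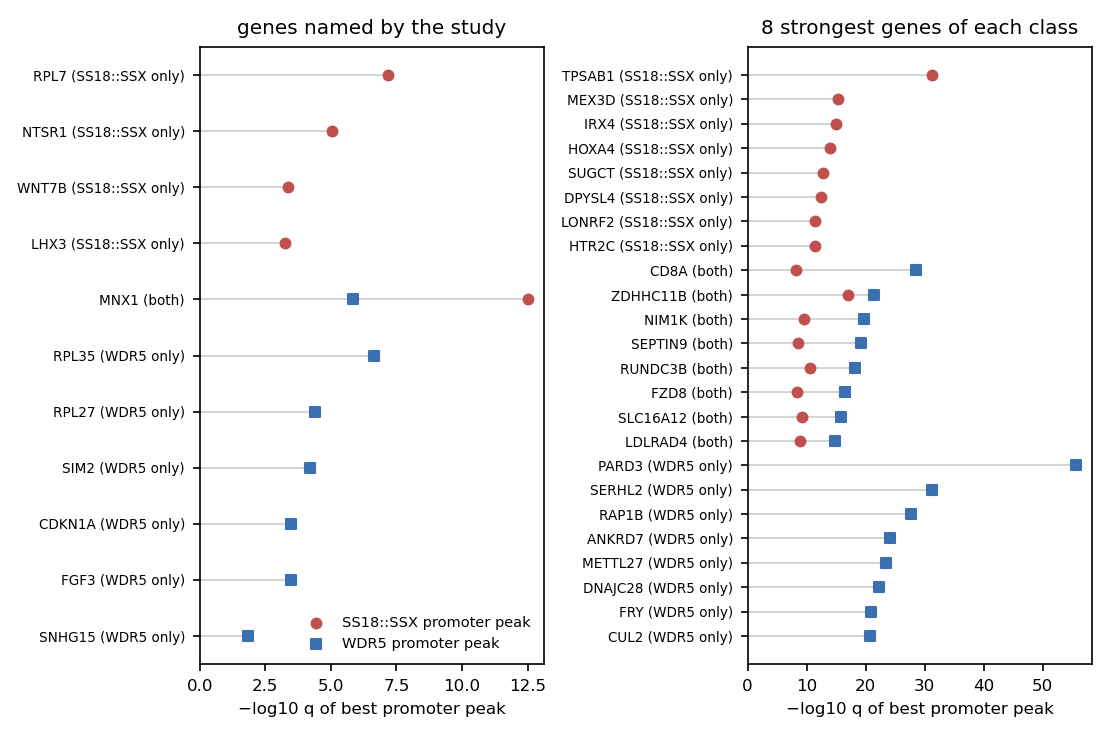
The −log10 q (x axes, each within its own list) of the best SS18::SSX (red circles) and WDR5 (blue squares) promoter peak at genes that the study names and that held at least 1 target (left) and at the 8 strongest protein-coding genes of each class (right), with the class in brackets. Where a target has no symbol, it had no peak in the window. *MNX1* is the only cobound gene on the left (12.5 and 5.83), and on the right *PARD3* stands apart at 55.6.

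The gene lists described next were counted over the 3 classes and set beside all protein-coding genes, of which 10.9% held SS18::SSX and 36.8% held WDR5. The lists of genes for translation and growth held WDR5 somewhat more often and SS18::SSX about as often as all protein-coding genes. Over these lists together, which include 29 long noncoding RNA genes, 184 of 506 genes (36.4%, 95% CI 32.2 to 40.7) held WDR5 only, compared with 30.1% of all protein-coding genes, 29 (5.73%, 3.87 to 8.13) were cobound, and 21 (4.15%, 2.59 to 6.27) held SS18::SSX only. Of the 78 mitochondrial ribosomal protein genes, 43 held WDR5 only, 5 were cobound, and 2 held SS18::SSX only, so that WDR5 was at 61.5% (49.8 to 72.3). *MRPL37* (−log10 q of 12.9), *MRPS24* (10.5), *MRPL27* (10.0), and *MRPS27* (9.79) had the strongest WDR5 peaks. The aminoacyl-tRNA synthetases, which charge tRNAs, were alike, with WDR5 at 11 of 18 (61.1%, 35.7 to 82.7). WDR5 was also at 37 of 69 translation factors (53.6%, 41.2 to 65.7), the strongest being *EIF2B5* (16.1) and *EEF1A1* (12.3), at 23 of 46 complex I genes (95% CI 34.9 to 65.1%), and at 22 of 44 DNA replication factors (34.6 to 65.4%). The lower bound of the interval was above 36.8% for the mitochondrial ribosomal proteins and the translation factors and below it for the other lists named so far. Core splicing factors held WDR5 at 16 of 35 (45.7%), whereas proteasome genes (13 of 39, 33.3%) and replication-dependent histone genes (3 of 69, 4.35%) did not exceed the 36.8% of all protein-coding genes. Small nucleolar RNA host genes, which are long noncoding RNA genes, held WDR5 at 15 of 29 (51.7%, 32.5 to 70.6), compared with 12.2% of all long noncoding RNA genes.

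The cytosolic ribosomal protein genes did not follow the mitochondrial ones. Of 79, 24 held WDR5 only, 1 was cobound, and 7 held SS18::SSX only, so that WDR5 was at 31.6% (21.6 to 43.1) and SS18::SSX at 10.1% (4.47 to 19), both close to all protein-coding genes. *RPL10A* (11.2), *RPS20* (7.91), and *RPS15* (6.92) were among those with WDR5 only. *RPL7* (7.16), *RPS18* (4.63), and *RPL36* (3.59) were among those with SS18::SSX only. With peaks centred up to 2000 bp downstream of a start site counted too, WDR5 was at 33 of the 79 genes (41.8%), compared with 57.7% of all protein-coding genes. These genes have many processed copies elsewhere in the genome, and reads from their exons that align equally well to a copy may be lost or placed there. The promoter window lies mostly upstream of the start, and an effect of such copies on these shares was not tested.

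The counts of SS18::SSX genes in these lists were small. SS18::SSX was at 8 of 44 DNA replication factors (18.2%, 8.19 to 32.7), of which 6 were cobound, among them *FEN1*, the flap endonuclease (6.2 and 7.6), and *MCM7*, a subunit of the replicative helicase (3.12 and 7.81). It was at 7 of 78 mitochondrial ribosomal protein genes (8.97%) and 7 of 69 translation factors (10.1%). All these intervals included the 10.9% of all protein-coding genes.

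Among the 4 lists of chromatin regulators, the Polycomb subunits had the highest share with SS18::SSX. Of 36 Polycomb genes, 8 held SS18::SSX (22.2%, 10.1 to 39.2), among them *PCGF3* (7.03), *EZH2* (4.44), and *SCMH1* (2.5) without WDR5 and *RNF2* (5.93), *PHC3* (4.47), *PCGF5* (1.96), and *MTF2* (1.71) with it. *RNF2* encodes the ubiquitin ligase that places the Polycomb mark on histone H2A. WDR5 was at 18 of the 36 (95% CI 32.9 to 67.1%), with *CBX7* (8.12) and *RBBP7* (6.78) the strongest WDR5-only members. The interval of the SS18::SSX share included 10.9%, so the list could not be told from all genes at this number. Of the 20 subunits of the KMT2 complexes, in which WDR5 itself works, 5 held WDR5 only and 2 were cobound. *DPY30* stood out with 15.5, while *PAXIP1* (4.03), *KMT2A* (3.73), *ASH2L* (3.07), and *KMT2D* (2.73) had weaker peaks, and *SETD1A* (1.85 and 2.77) and *PSIP1* (1.83 and 7.33) were cobound. Of the 28 SWI/SNF genes, 12 held WDR5 only, including *SS18* (10.3), the parent gene of the fusion, and *SMARCB1* (7.16). *SMARCA2* (2.8 and 10.9) and *SMARCE1* (2.27 and 5.21) were cobound, and *SMARCA4* (2.12) held SS18::SSX only, with a WDR5 summit 826 bp downstream. The zinc finger genes of chromosome 19 were close to all genes, with SS18::SSX at 20 of 240 (8.33%, 5.16 to 12.6) and WDR5 at 78 (32.5%, 26.6 to 38.8). *ZNF548* (8.57) and *ZNF787* (8.28) had their strongest SS18::SSX peaks, both with WDR5, and *ZNF446* (17.3) the strongest WDR5 peak.

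The developmental transcription factors held SS18::SSX more often and WDR5 less often than all protein-coding genes. Of 319 such genes, 82 (25.7%, 95% CI 21.0 to 30.9) held SS18::SSX, compared with 10.9%, and 83 (26.0%, 21.3 to 31.2) held WDR5, compared with 36.8%. Of the 319, 50 (15.7%, 11.9 to 20.1) held SS18::SSX only, compared with 4.19% of all protein-coding genes, while 32 (10.0%, 6.96 to 13.9) were cobound and 51 (16%, 12.1 to 20.5) held WDR5 only. Hence WDR5 was in the promoter window at 39.0% of their SS18::SSX genes (28.4 to 50.4), below the 61.7% of all SS18::SSX genes (59.6 to 63.7). A place in the SS18::SSX-only class did not mean that WDR5 was absent nearby. Of the 50 genes, 14 (28.0%) had no WDR5 peak within 5000 bp of a start site, compared with 22.4% of all SS18::SSX-only protein-coding genes. The SS18::SSX share stayed above that of all protein-coding genes, and the WDR5 share below, under all 11 alternatives of window, threshold, start site, and gene set. Some of these could not differ. Taking protein-coding genes only left both shares as they were, and the shorter WDR5 list left the SS18::SSX share as it was.

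Within this group, the HOX genes, which pattern the body axis, held SS18::SSX at 9 of 39 (23.1%). *HOXA4* (14.0), *HOXD10* (8.03), *HOXA10* (5.92), *HOXD9* (5.17), and *HOXD11* (2.32) held it alone, and *HOXA6* (8.24 and 4.81), *HOXA13* (2.56 and 3.52), and *HOXC4* (2.47 and 5.17) were among those with WDR5. Other homeobox genes were bound by SS18::SSX at 36 of 126 (28.6%, 20.9 to 37.3) and by WDR5 at the same number, with 13 cobound. *IRX4* (14.9), *NOTO* (7.84), and *OTP* (6.1) were among those with SS18::SSX only. *MNX1*, *SHOX2* (6.33 and 12.2), *DLX6* (5.07 and 12.7), and *HHEX* (4.1 and 14.9) were cobound, and *PRRX1*, a mesenchymal homeobox gene (13.2), *SIX2* (12.2), and *PITX3* (12.1) had strong WDR5 peaks alone. The nearest SS18::SSX summit was 574 bp downstream at *PRRX1* and 45820 bp away at *SIX2*.

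The bHLH factors of cell fate held SS18::SSX at 17 of 61 (27.9%, 17.1 to 40.8) and WDR5 at 13 (21.3%, 11.9 to 33.7). *NEUROG3* (10.2), a factor of endocrine pancreas, *HES3* (5.34), and *MYOD1* (4.45), the master factor of skeletal muscle, held SS18::SSX only. *PTF1A*, a factor of exocrine pancreas, was cobound, with 13.1 and 57 fragments for SS18::SSX and 3.22 and 18 fragments for WDR5. The T-box genes held SS18::SSX at 6 of 17. It was alone in the window at *EOMES* (7.56), *TBX21* (5.33), *TBR1* (3.68), and *TBX10* (2.83), while *TBX4* (8.42 and 4.24) and *TBXT*, the notochord factor brachyury (4.35 and 5.42), were cobound. The nearest WDR5 summit lay downstream at these single-target genes, by 119 bp at *EOMES*, 73 bp at *TBX21*, 669 bp at *TBR1*, and 10217 bp at *TBX10*. The SOX genes were mixed, with *SOX17* (3.6) and *SOX18* (6.75) holding SS18::SSX only, *SOX3* (7.92 and 7.73) and *SOX5* (2.56 and 7.84) cobound, and *SOX21* (12.7), *SOX2* (9.3), *SOX9* (4.2), and *SOX14* (2.59) holding WDR5 only. Forkhead genes held SS18::SSX at 8 of 51 (15.7%, 7.02 to 28.6), of which *FOXE1* (7.1 and 2.05) and *FOXI3* (6.21 and 13.7) were the strongest, and 2 of the 6 GATA genes, *GATA6* (4.59) and *GATA5* (2.27), held it alone. The lineages that these factors specify, among them pancreas, muscle, notochord, and neurons, are unlike each other.

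**Figure D4:**
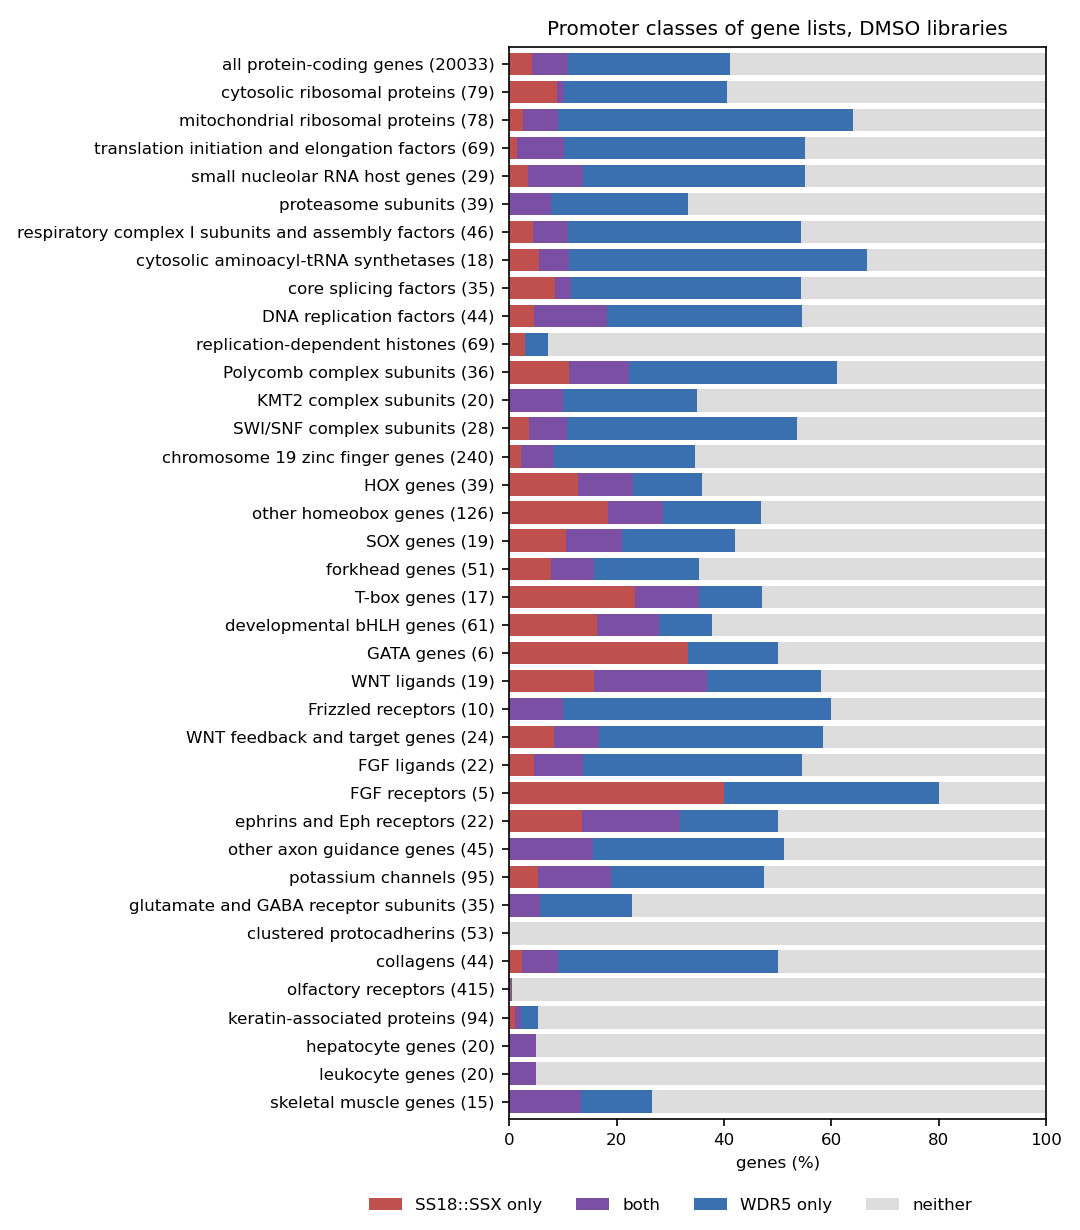
Share of genes (x axis, percent) with SS18::SSX only (red), both targets (purple), WDR5 only (blue), or neither (grey) at the promoter, for all protein-coding genes and for each of 37 lists (y axis, number of genes in brackets). In all protein-coding genes the coloured parts are 4.19, 6.75, and 30.1%. The red part is widest among the homeobox, T-box, bHLH, and GATA lists and the 5 FGF receptors, the blue part among the aminoacyl-tRNA synthetases (55.6%) and mitochondrial ribosomal proteins (55.1%), and the clustered protocadherins have no colour.

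SS18::SSX peaks also lay more densely around developmental transcription factors. Counting all peaks within 10 kb of the 5′ end, 53 of the 319 (16.6%) had 5 or more SS18::SSX peaks, compared with 180 of 19714 other protein-coding genes (0.913%). For WDR5 the corresponding shares were 10 of 319 (3.13%) and 0.964%. Some of these genes are neighbours that share peaks, and the 53 genes fell into 45 loci more than 20 kb apart. They included 9 HOX genes, 26 other homeobox genes, and 5 SOX genes. *HOXA3*, *HOXA6*, *OLIG2*, *UNCX*, and *VENTX* had 10 peaks each, the highest number in the group, and these were chosen after their values were seen. A dense neighbourhood did not always come with a promoter peak, because 27 of the 53 (50.9%) had neither target in the promoter window and 8 had WDR5 only. Of all 319, 58.3% had neither. Density and class still went together. Among all 233 protein-coding genes with 5 or more SS18::SSX peaks, 28.3% held SS18::SSX only and 21.9% were cobound, compared with 4.19 and 6.75% of all protein-coding genes. Promoter peaks near the 5′ end are themselves among the peaks counted. Over all protein-coding genes, the mean number of SS18::SSX peaks within 10 kb was 1.84 for SS18::SSX-only genes, 1.54 for cobound genes, 0.266 for WDR5-only genes, and 0.237 for genes with neither. For WDR5 peaks it was 1.37, 2.03, 1.87, and 0.735.

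The local background that MACS2 set for the best SS18::SSX promoter peak was 9.24 times the coverage of the library in the median (quartiles 5.39 and 16.6) at developmental transcription factors and 2.33 times (1.5 and 4.23) at other protein-coding genes. For WDR5 it was 10.9 times (6.38 and 13.8) and 4.91 times (3.35 and 7.13). The median SS18::SSX summit held 21 fragments at developmental transcription factors and 10 at other genes, while the median fold enrichment was lower, at 3.68 compared with 4.54. The local background was thus higher at these genes in both libraries. It is set from windows around the peak, which can contain other called peaks. The part of the local background in the classes was not tested. Without the 100 bins of 1 Mb with the highest local background, SS18::SSX was at 71 of 290 developmental transcription factors (24.5%) and at 10.5% of all protein-coding genes. Because 290 of the 319 genes remained, the removal could change these shares only a little, and it is no test of the part of the background.

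**Figure D5:**
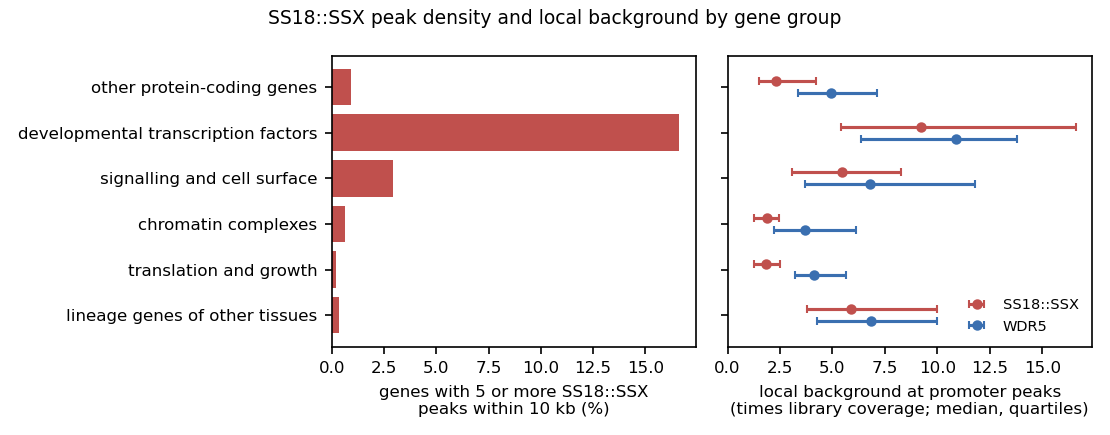
Left, share of genes (x axis, percent) with 5 or more SS18::SSX peaks within 10 kb of the 5′ end, by gene group (y axis). Right, local background at the best promoter peak as a multiple of the library's coverage (x axis), with points at the median and bars at the quartiles for SS18::SSX (red) and WDR5 (blue). Developmental transcription factors stand out on the left (16.6% compared with 0.913% of other protein-coding genes) and in both libraries on the right (9.24 and 10.9 times coverage).

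Signalling and cell surface genes held SS18::SSX somewhat more often than all protein-coding genes and WDR5 about as often. Of 374, 55 (14.7%, 11.3 to 18.7) held SS18::SSX and 139 (37.2%, 32.3 to 42.3) held WDR5, and WDR5 was at 69.1% of the SS18::SSX genes (55.2 to 80.9). Of the 19 WNT ligands, 7 held SS18::SSX (36.8%, 16.3 to 61.6). *WNT9A* (5.59), *WNT7B* (3.35), and *WNT3A* (2.78) held it alone, and *WNT16* (3.48 and 3.98), *WNT3* (3.24 and 6.95), *WNT2B* (2.78 and 8.03), and *WNT2* (2.24 and 13.8) with WDR5. Of their 10 Frizzled receptors, 5 held WDR5 only, *FZD8* was cobound, and none held SS18::SSX alone. Among WNT feedback and target genes, *WIF1* (4.65 and 9.71), a WNT inhibitor, and *RSPO2* (3.78 and 12.2), a WNT agonist, were cobound, and *DKK1* and *SFRP2* (1.69), both inhibitors, held SS18::SSX only. In the FGF pathway, *FGF20* (7.27) held SS18::SSX only, *FGF22* (3.59 and 9.76) and *FGF4* (3.11 and 6.57) were cobound, and 9 of 22 ligands held WDR5 only, with *FGF5* (10.6) the strongest. Of the receptors, *FGFRL1* (5.31) and *FGFR3* (3.48) held SS18::SSX and *FGFR1* (8.44) and *FGFR2* (8.14) held WDR5, so no receptor was cobound. Ephrins and Eph receptors, which guide axons and cells by contact, held SS18::SSX at 7 of 22 (31.8%, 13.9 to 54.9), and other axon guidance genes at 7 of 45 (15.6%, 6.49 to 29.5), all 7 of them cobound, among them *ROBO2* (4.63 and 7.49) and *SLIT1* (4.3 and 5.06).

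Potassium channels held SS18::SSX at 18 of 95 (18.9%, 11.6 to 28.3), of which 13 were cobound. *KCNG2* (11 and 5.24) and *KCNB2* (8.85 and 9.58) were among those with strong SS18::SSX peaks, both with WDR5. Glutamate and GABA receptor genes were bound less often (SS18::SSX at 2 of 35 and WDR5 at 8), with *GRIN2C* (6.37 and 8.68) and *GRIN1* (4.58 and 3.2) cobound. Of 44 collagen genes, 18 held WDR5 only and 3 were cobound, and *COL19A1* had a WDR5 peak with a −log10 q of 43.9 together with a weaker SS18::SSX peak (4.38). *COL26A1* held SS18::SSX only (10.1), with a WDR5 peak of 16.7 whose summit lay 1142 bp downstream.

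Genes of unrelated cell types were rarely in any class, and 551 of 564 (97.7%, 96.1 to 98.8) had neither target. Of 415 olfactory receptors, 413 had neither. The 53 clustered protocadherins were counted with the signalling and cell surface genes above and not among these 564. None of the protocadherins was in any class, a count of 0 that allows a share of up to 6.72%. Of 20 hepatocyte genes only *CYP2E1* (3.18 and 8.52) and of 20 leukocyte genes only *CD8A* was bound, and both were cobound. Among 15 skeletal muscle genes, *ACTA1* (3.86 and 4.2) and *CKM* (3.78 and 7.23) were cobound and *TNNC2* (8.49) and *TNNI2* (3.14) held WDR5 only. This list was not low, with SS18::SSX at 13.3% (1.66 to 40.5) and WDR5 at 26.7% (7.79 to 55.1). Both intervals included the shares of all protein-coding genes (10.9 and 36.8%). Of the 94 keratin-associated genes, a family of close copies on which reads are uncertain, 5 were bound. Levels of RNA were not analysed here, so whether these genes are expressed in HSSY II cells is not given.

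The promoters of the 3 bound classes could hardly be told apart by base composition. Over 300 bases at the 5′ end of the gene record in hg38 (250 before and 50 after the start), the median ratio of observed to expected CpG was 0.79 for SS18::SSX-only genes, 0.79 for cobound genes, and 0.788 for WDR5-only genes, compared with 0.552 for genes with neither. GGGCGG, the SP/KLF motif, was in 66.0% (62.6 to 69.2), 67.3% (64.7 to 69.8), and 65.0% (63.8 to 66.2) of the 3 classes, in 43.4% of the promoters with neither, and in 52.4% of all protein-coding promoters. CACGTG was in 9.17% (7.3 to 11.3), 10.1% (8.57 to 11.9), and 9.1% (8.39 to 9.86), compared with 8.36% of all. CCAAT was in 37.6% (34.3 to 41.0), 36.8% (34.2 to 39.4), and 34.2% (33.0 to 35.4), compared with 35.9% of all. Bound promoters of any class were thus CpG-rich, and the classes differed little.

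A difference between the targets appeared under the peaks themselves. Within 300 bases around the summit of the best promoter peak, CCAAT was present for 31.5% of the SS18::SSX peaks at SS18::SSX-only genes (28.3 to 34.9) and 30.1% of those at cobound genes (27.6 to 32.7). It was present for 24.6% of the WDR5 peaks at WDR5-only genes (23.5 to 25.7) and 23.4% of those at cobound genes (21.1 to 25.8). At the cobound genes, the same genes therefore gave 30.1% around SS18::SSX summits and 23.4% around WDR5 summits. These CCAAT shares were all below the 35.9% of all protein-coding promoters, which was counted over 300 bases at the 5′ end and not around summits. No share was counted around places without a peak, so enrichment of the motif under either target was not tested. GGGCGG (52.1 and 55.4% at cobound genes) and CACGTG (7.67 and 7.53%) differed little between the targets, and median GC content was 62.3 and 63.7%. A match is only a description of the letters, and whether NF-Y binds there was not measured.

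The classes were drawn from the DMSO lists alone, and the lists from cells treated for 4 days with 2.5 μM MS67, a degrader of WDR5, gave a readout that did not enter them. The MS67 lists held fewer peaks, 1175 for SS18::SSX and 14123 for WDR5, with coverage of 0.737 and 0.168 fragments per bp. A WDR5 promoter peak was present in the MS67 list at 43.8% of the WDR5-only protein-coding genes (42.5 to 45.0), 46.9% of the cobound genes (44.2 to 49.6), 18.1% of the SS18::SSX-only genes (15.5 to 20.9), and 9.32% of the genes with neither (8.8 to 9.85). SS18::SSX-only genes thus lay between the WDR5 classes and the rest also in a WDR5 library that was not used to class them. An SS18::SSX promoter peak was present with MS67 at 2.98% of the SS18::SSX-only genes (1.94 to 4.36), 3.55% of the cobound genes (2.63 to 4.68), 0.282% of the WDR5-only genes (0.165 to 0.452), and 0.0931% of the genes with neither (0.0465 to 0.166). The shares of the SS18::SSX-only and cobound genes had overlapping intervals. Of the genes named above, *LHX3*, *SIM2*, *HTR2C*, *ZDHHC11B*, *SHOX2*, *TBXT*, *WNT3A*, and *GRIN1* had an SS18::SSX promoter peak with MS67.

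Cobound genes were spread over the genome and unevenly so. They made up 13.5% of the protein-coding genes on chromosome 18, 11.4% on chromosome 21, and 11.2% on chromosome 7, compared with 6.75% of all, and 2.56% on the X chromosome. The 100 bins of 1 Mb with the highest local background held 7.61% of the cobound genes, 5.48% of the SS18::SSX-only genes, 3.32% of the WDR5-only genes, and 3.17% of all protein-coding genes. Without the genes in these bins, 1099 SS18::SSX-only, 1653 cobound, and 7579 WDR5-only genes remained of all annotated genes. Because the bins held so few genes of any class, their removal could change these counts only a little.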

How the data were processed

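CUT&RUN, which cuts and releases DNA at an antibody target, was sequenced from HSSY II cells, 1 library for each of 2 targets with DMSO or MS67. The study's methods describe alignment to hg38 with Bowtie2, removal of nonprimary alignments and of PCR duplicates, and peak calling with MACS2 for each library. The submitters' processing notes name SAMtools 1.9, Picard, bedtools 2.28.0, MACS2, and deepTools 3.3.0. The MACS2 options and any control library are not given in the sources used here, and no use of the spike-in in the peak lists is stated. The deposited peak lists give, per the file headers, the fold enrichment (a ratio over the local background), the −log10 p-value and q-value of the summit, and a score that the authors' caller derives from −log10 q. Whether that background came from the same library or from a control is not stated. Such values depend on depth and rank peaks within 1 list.

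Peaks were assigned to every start site of the basic transcripts of GENCODE 44 (84769 start sites). The fragment number at each summit and the local background were solved from fold and p, and the lowest background was taken as coverage, which was 0.541 fragments per bp (SS18::SSX) and 0.368 (WDR5) with DMSO. Read totals were not given in the lists. The solution and the assignment were tested on simulated data. Base composition and motifs were read from hg38 for 20032 of 20033 protein-coding genes, because the RefSeq promoter table, used for the sequences printed, matched 15366. Analyses used Python 3.11.15, numpy 2.4.6, scipy 1.17.1, and pandas 2.3.3. Named genes were those that the study names, the 8 strongest protein-coding genes of each class, and in each of 37 gene lists up to 4 members per class, or every member of a class of 5 or fewer. The members, rules, and lists were chosen with earlier results of these data known. Alternatives were 2 other promoter windows, the summit or any overlap in place of the centre, other sets of start sites, 2 stricter thresholds, a WDR5 list of equal length, exclusion of the 100 bins of 1 Mb with the highest background, and protein-coding genes only. No paired or replicate test could be made with 1 library per target. Some genes are not reported here.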

Additional observations from a re-analysis of the deposited data

How the results depend on the processing

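With the 1000 to 100 bp window there were 1195 SS18::SSX-only, 1805 cobound, and 7864 WDR5-only genes, WDR5 was at 60.2% of the SS18::SSX genes, and SS18::SSX was at 18.7% of the WDR5 genes. A window from 2000 bp upstream to 500 bp downstream gave 3328 cobound genes and shares of 74.7 and 24.4%. A window of 500 bp on each side raised the share of SS18::SSX genes with WDR5 to 64.7%. Any overlap gave 70.5 and 20.3%, and every annotated transcript start, an alternative chosen after seeing the data, gave 67.0 and 21.6%. With the start of the gene record alone there were 1165 cobound genes and shares of 51.8 and 15.7%. With −log10 q above 3 and fold above 3 (SS18::SSX) or 6 (WDR5), the stricter standard of the study, there were 305 cobound and 2171 WDR5-only genes, with shares of 17.8 and 12.3%. With −log10 q above 5 in both lists there were 392, 258, and 4890 genes in the 3 classes, with shares of 39.7 and 5.01%. With WDR5 reduced to 15141 peaks there were 1858, 1142, and 4205 genes, with shares of 38.1 and 21.4%. These alternatives use fewer or more peaks or start sites by construction. The ratio of the WDR5 share with SS18::SSX to that without, 2.75 over all genes, lay between 1.83 and 3.25 over the 11 alternatives. The direction of this ratio did not reverse. The order of the classes did, because SS18::SSX-only genes outnumbered cobound genes at both stricter thresholds and with the reduced WDR5 list. The cobound share of developmental transcription factors was below that of all protein-coding genes in 11 of 11 alternatives (7.69 to 55.4% compared with 17.4 to 76.8%). The alternative of protein-coding genes only could not change either share. Of 834 gene list shares under an alternative, 679 stayed within the interval of the value reported and 155 did not. Some of the 679 could not move. Lists of protein-coding genes do not change with protein-coding genes only, and SS18::SSX shares do not change with the reduced WDR5 list. No paired analysis was possible because each target had 1 library and the result comes from no test. Depth limits both lists, and a gene without a peak is not shown to lack the protein.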
